A study of Homo sapiens with 4 samples.

Results

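Plasma membrane amino acid transporters bring amino acids into the cell, or exchange those inside for those outside. The genes described here are 10 such transporters: SLC1A4, SLC1A5, SLC3A2, SLC7A1, SLC7A5, SLC7A11, SLC38A1, SLC38A2, SLC6A9 and SLC43A1. They were chosen by name, and all 13 gene probes that carry one of these names in the scanner files were used, out of 58201 gene probes and 43317 gene names. SLC38A1, SLC38A2 and SLC6A9 had 2 probes each, and each of the other members had 1. Gene expression was measured with 1-colour Agilent arrays in HCT116, a colorectal cancer line, and in A549, a lung cancer line. Each line had been transfected, with the reagent Dharmafect1, with the microRNA miR-891b or with the negative control NC1. The 4 groups, 2 lines by 2 RNAs, held 1 array each, and the labels name no repeat culture. The dose of the RNA and the time of harvest are not given in the sources used here.

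Amino acid transporters work in a division of labour. Sodium-coupled carriers load a cell with small neutral amino acids, and exchangers then trade these for essential amino acids or cystine. Many tumour lines express these carriers at a high level, and the kinase complex mTORC1 reads the amino acids they deliver. The transcription factor ATF4 is known to raise many of these genes when amino acids are scarce. The series concerns PSAT1, an enzyme that makes serine inside the cell, and serine is also a substrate of several of these carriers.

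The RNA that was transfected is shown first, since the comparison within each line turns on it. The mature sequence is that of RefSeq (GRCh38.p14, chrX:146001100-146001121, minus strand), with the seed, bases 2 to 8, in capitals.
miR-891b: uGCAACUUaccugagucauuga
The complement of the seed, AAGTTGC, occurred in 0 of the 13 member probes and in 229 (0.393%) of all 58201 gene probes. The probes sample 60 bases of each transcript, so nothing follows for the rest of it.

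Each gene was read through 60-base probes, of which 2 are printed to show what was hybridised. The SLC3A2 probe lies at chr11:62652689-62652748 (plus strand), in hg19. The second SLC6A9 probe covers chr1:44466499-44466646 (minus strand), 148 bases of genome for 60 bases of probe, so it bridges a gap of 88 bases and matches spliced RNA.
SLC3A2: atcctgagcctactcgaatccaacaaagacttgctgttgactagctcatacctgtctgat
SLC6A9: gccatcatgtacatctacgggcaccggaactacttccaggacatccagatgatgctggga
Exon annotation of hg19 was not used here, and most other probes are given by position.

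Signals are given below as multiples of the array's 75th percentile over gene probes, so they can be compared between arrays for 1 probe but not between probes. Changes are differences of log2 signal, miR-891b minus NC1. Feature Extraction, the scanner software, gives each signal an error, which came to 0.204 on the log2 scale for the difference between 2 bright signals of 1 probe. Those of SLC1A4 and SLC43A1 and the second probe of SLC6A9 were dimmer and had larger errors. This error covers the spot and not the culture, and with 1 array per group no difference within a line could be tested. A change was called at 2-fold, a log2 size of 1, for probes well above background on both arrays of a line.

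The arrays of a line shared a slide, and the lines were on different slides. The labels also list a different medium for each line, McCoy's 5A and DMEM in the order HCT116 and A549, so line, slide and medium cannot be told apart. Between 44.7% and 50.3% of gene probes were well above background per array, and no gene spot was saturated. Stray signal, defined as areas where at least 10% of nearby spots that were dim elsewhere were well above background, covered 10.5% of gene spots on the HCT116 miR-891b array and between 0.0213% and 2.19% on the others. On the NC1 arrays, 6 of the 7 A549 markers and 5 of the 7 HCT116 markers well above background in at least 1 line differed between the lines in the direction of the label. Of 7 fibroblast markers, 2 were well above background in HCT116 and 4 in A549, and COL1A2, COL3A1 and DCN were dim on all 4 arrays. The summed fibroblast marker signal was 2.64 and 2.19 in HCT116 and 4.26 and 10.5 in A549, NC1 before miR-891b. In A549, LUM changed by 2.14 on the log2 scale, while the other 3 measured fibroblast markers were lower (THY1 -1.04, COL1A1 -0.59 and PDGFRB -0.04). The part of these markers in the results below was not tested. Of 4 leukocyte markers 3 were found, with summed signals between 0.375 and 0.463, and CD3E was dim on all 4 arrays.

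In HCT116, 9 of the 10 transporters were measured, and 8 of these 9 were lower with miR-891b, as were 55.5% of all measured genes. Their median change was -0.45, against -0.041 over all 19105 measured genes. SLC43A1 fell by more than 2-fold, and no member was 2-fold higher. Over all measured genes 0.843% were at least 2-fold lower and 1.16% at least 2-fold higher, 2% in all. Changes larger than the scanner's error were found for 6 members, all lower, against 46.2% of all measured genes, of which the share lower was 27.7% and the share higher 18.6%. Signals are scaled within each array, so a lower signal is lower relative to the other RNAs of that array. In these bulk samples it can mean fewer cells of a kind or less of that RNA per cell, which cannot be told apart. In A549 all 10 were measured, 6 lower (SLC38A1 by -0.0038, a sign that depends on the scaling) and 4 higher, where 55.6% of all measured genes were lower, with a median of -0.077 against -0.059 over 21336 genes. SLC7A1 fell and SLC6A9 rose past 2-fold there, while 5.57% of all measured genes were called lower and 4.01% higher, 9.58% in all. In A549, 4 members were lower and 3 higher by more than the scanner's error, a size reached by 35.9% and 26.9% of all measured genes, 62.8% in all.

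**Figure D1:**
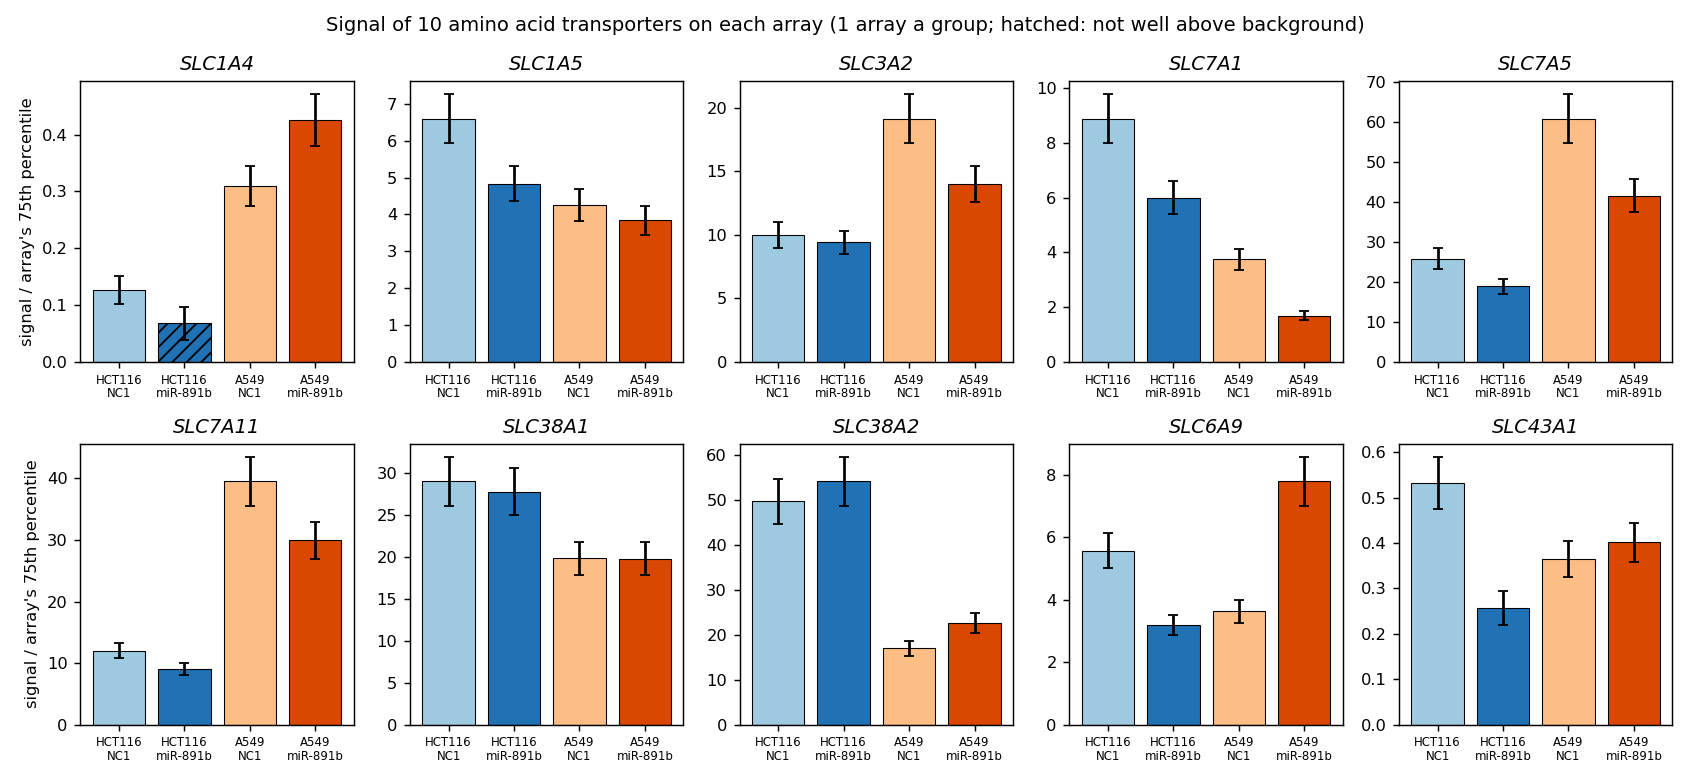
Signal of each transporter on the 4 arrays, as a multiple of the array's 75th percentile on a linear axis from 0, for the brighter probe of each gene. Bars are single arrays, lines on them are the scanner's error for 1 spot, and hatching marks a signal not well above background. SLC6A9 is highest on the A549 miR-891b array (7.80) and lowest on the HCT116 miR-891b array (3.18), and SLC7A1 runs from 8.88 in HCT116 with NC1 to 1.69 in A549 with miR-891b.

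The heteromeric exchangers pair a light chain that carries the substrate with a heavy chain that brings it to the membrane. SLC3A2 encodes that heavy chain, known as 4F2hc or CD98. Its signal was 9.97 with NC1 and 9.39 with miR-891b in HCT116, and 19.1 and 13.999 in A549. The change was -0.09 in HCT116, within the scanner's error, and -0.45 in A549, beyond it. In A549, 21.2% of measured genes had a change as low or lower.

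SLC7A5 encodes LAT1, the light chain that imports leucine and other large neutral amino acids (probe at chr16:87863907-87863966, hg19, minus strand). Its signal was 25.8 and 18.9 in HCT116, NC1 before miR-891b, and 60.7 and 41.5 in A549. Both miR-891b arrays lay below their NC1 array, and both A549 arrays lay above both HCT116 arrays. The changes were -0.45 and -0.55, the former as low as that of 10.1% of measured genes or lower. The latter stood at 16.6% of genes measured in A549. The heavy chain's change was thus smaller than the light chain's in HCT116, with a gap that was not tested.

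SLC7A11 encodes xCT, the light chain that takes up cystine in exchange for glutamate and so feeds glutathione (chr4:139085433-139085492, minus strand). Its signal was 12.04 with NC1 and 9.04 with miR-891b in HCT116, and 39.5 and 29.9 in A549. Both lines showed a lower signal with miR-891b, and the A549 arrays were again above the HCT116 arrays. The changes were -0.41 in HCT116 and -0.40 in A549, at 12.1% and 23.7% of measured genes. Under quantile normalization they were -0.35 and -0.21. The A549 changes of SLC7A5 and SLC3A2 also depended on the scaling, and were as small as -0.34 and -0.25 under the alternatives.

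SLC7A1 encodes CAT-1, the carrier for arginine and lysine (chr13:30084093-30084152, minus strand). Its signal was 8.88 and 5.99 in HCT116 and 3.75 and 1.69 in A549, NC1 before miR-891b. All 4 values were apart by more than their errors, with both HCT116 arrays above both A549 arrays and, in each line, NC1 above miR-891b. The change was -0.57 in HCT116 and -1.15 in A549, where 3.89% of measured genes were as low or lower. On the HCT116 miR-891b array, 13.9% of nearby spots dim elsewhere were bright around this probe, and at most 4.70% on the other 3 arrays. The A549 change was -0.81, under 2-fold, after normexp background correction with quantile normalization.

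The ASC transporters SLC1A4 and SLC1A5 exchange alanine, serine and cysteine, and SLC1A5 (ASCT2) is best known for glutamine uptake. SLC1A5 had a signal of 6.59 with NC1 and 4.84 with miR-891b in HCT116, and 4.26 and 3.84 in A549. The HCT116 NC1 array was the highest, and the 2 A549 arrays overlapped within their errors. Its change was -0.45 in HCT116, at 10.4% of measured genes, and -0.15 in A549, within the scanner's error.

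SLC1A4 (ASCT1, chr2:65250035-65250094, plus strand) was dim. Its signal was 0.127 in HCT116 with NC1, and in A549 it was 0.309 with NC1 and 0.426 with miR-891b. On HCT116 miR-891b it was not well above background, with a measured value of 0.0677. The NC1 signal was 1.11-fold that array's dimmest signal well above background. That gap is smaller than the NC1 signal's own error of 0.29 on the log2 scale, so no decrease was shown in HCT116. In A549 SLC1A4 changed by 0.46, beyond its error of 0.22, but by 0.15 after normexp with quantile normalization. SLC1A4 was thus brighter on both A549 arrays than on either HCT116 array.

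The sodium-coupled carriers SLC38A1 (SNAT1) and SLC38A2 (SNAT2) concentrate glutamine, alanine and serine in the cell. SLC38A1 had a signal of 29.0 and 27.8 in HCT116 and 19.8 and 19.8 in A549 on its brighter probe (chr12:46577061-46577120, minus strand). The second probe (chr12:46582007-46582066) read 21.2 and 21.7 in HCT116 and 22.8 and 21.2 in A549. No change on either probe exceeded the scanner's error, with -0.06 and 0.03 in HCT116 and -0.0038 and -0.10 in A549. The sign of the first A549 value turned under quantile normalization, normexp with quantile normalization and median scaling.

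SLC38A2 is the carrier of this pair that is known to be induced by amino acid shortage. On its brighter probe (chr12:46752710-46752769, minus strand) the signal was 49.6 with NC1 and 54.1 with miR-891b in HCT116, and 17.0 and 22.5 in A549. The second probe (chr12:46754625-46754684) read 26.3 and 29.7 in HCT116 and 9.85 and 12.5 in A549. Every one of these pairs was higher with miR-891b, and both HCT116 arrays were above both A549 arrays. The changes were 0.12 and 0.18 in HCT116, within the error, and 0.41 and 0.35 in A549, beyond it. SLC38A2 was the 1 member measured in both lines that was higher in each. Around the second probe, 11.1% of nearby spots dim elsewhere were bright on HCT116 NC1.

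SLC6A9 encodes GlyT1, a sodium- and chloride-dependent glycine carrier. Its brighter probe (chr1:44462162-44462221, minus strand) had a signal of 5.58 with NC1 and 3.18 with miR-891b in HCT116, and 3.64 and 7.80 in A549. The lines moved in opposite directions, with log2 changes of -0.81 in HCT116 and 1.1003 in A549. In HCT116, 1.95% of measured genes were as low or lower, and in A549, 96.8% were as low or lower. The intron-bridging probe printed above was dim, at 0.102 and 0.0598 in HCT116 and 0.0683 and 0.175 in A549. It was not well above background on HCT116 miR-891b, which leaves no fold for that line, and it changed by 1.36 with an error of 0.36 in A549. Both probes were thus at least 2-fold higher in A549, by 2.14-fold and 2.56-fold.

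SLC43A1 encodes LAT3, a facilitated carrier of large neutral amino acids (chr11:57252301-57252360, minus strand). Its signal was low, with 0.532 and 0.257 in HCT116 and 0.364 and 0.402 in A549. The HCT116 miR-891b array was the lowest of the 4, and the 2 A549 arrays overlapped within their errors. The HCT116 change was -1.05 with an error of 0.27, and 0.665% of measured genes were as low or lower. It was -0.33 after normexp with quantile normalization, so the 2-fold call was lost there. The A549 change was 0.14, within the error of 0.22, and 0.044 after normexp with quantile normalization.

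**Figure D2:**
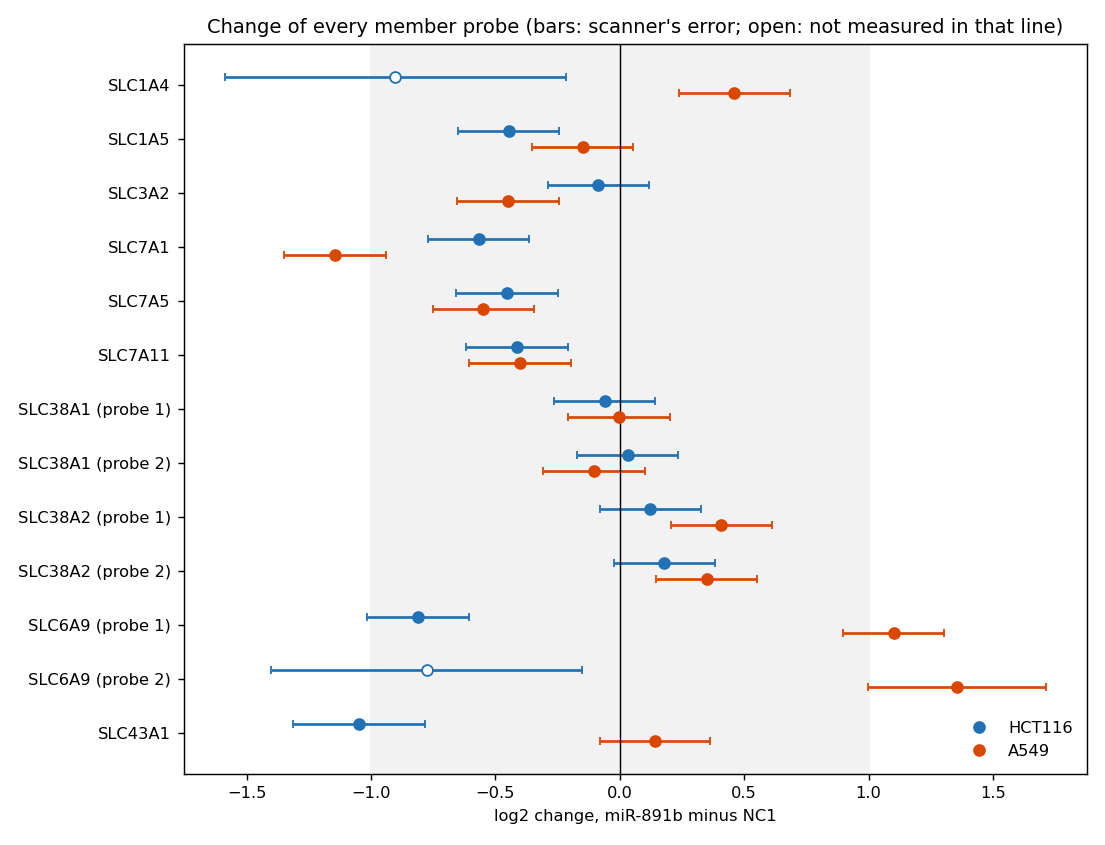
Log2 change of every member probe, miR-891b minus NC1, in HCT116 (blue) and A549 (orange), with the scanner's error of the difference; the grey band spans changes under 2-fold and open circles are probes not well above background on both arrays of the line. The circles of both lines lie left of 0 for SLC7A1, SLC7A5 and SLC7A11, and on opposite sides for both SLC6A9 probes. The HCT116 circle of the second SLC6A9 probe is open, so it gives no measured direction in that line.

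Of the 9 members measured in both lines, 6 were lower in each, 1 was higher in each and 2 had opposite signs. Over all 18064 genes measured in both lines these shares were 33.8%, 21.1% and 45.1%. Those lower in each were SLC1A5, SLC3A2, SLC7A1, SLC7A5, SLC7A11 and SLC38A1, the last with an A549 sign that turned under 3 of the alternatives. For SLC7A1, SLC7A5 and SLC7A11, both changes were larger than the scanner's error. A limma fit that took out the difference between the lines, and so used them as repeats, left 1 residual degree of freedom. By limma, 0 of 22712 genes had an adjusted p under 0.05 for miR-891b, so 0% were called lower and 0% higher. Without adjustment, 1214 of these 22712 genes had a limma p under 0.05, and SLC7A1 was the 1 member among them. Its difference was -0.86 with a standard error of 0.27 and an adjusted p of 0.793 from limma. Without areas of stray signal, SLC7A1 was not in the fit and 0 members had an unadjusted limma p under 0.05. SLC7A5 followed with -0.50 (standard error 0.23, limma adjusted p = 0.793). The remaining members had limma differences between -0.45 and 0.27.

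**Figure D3:**
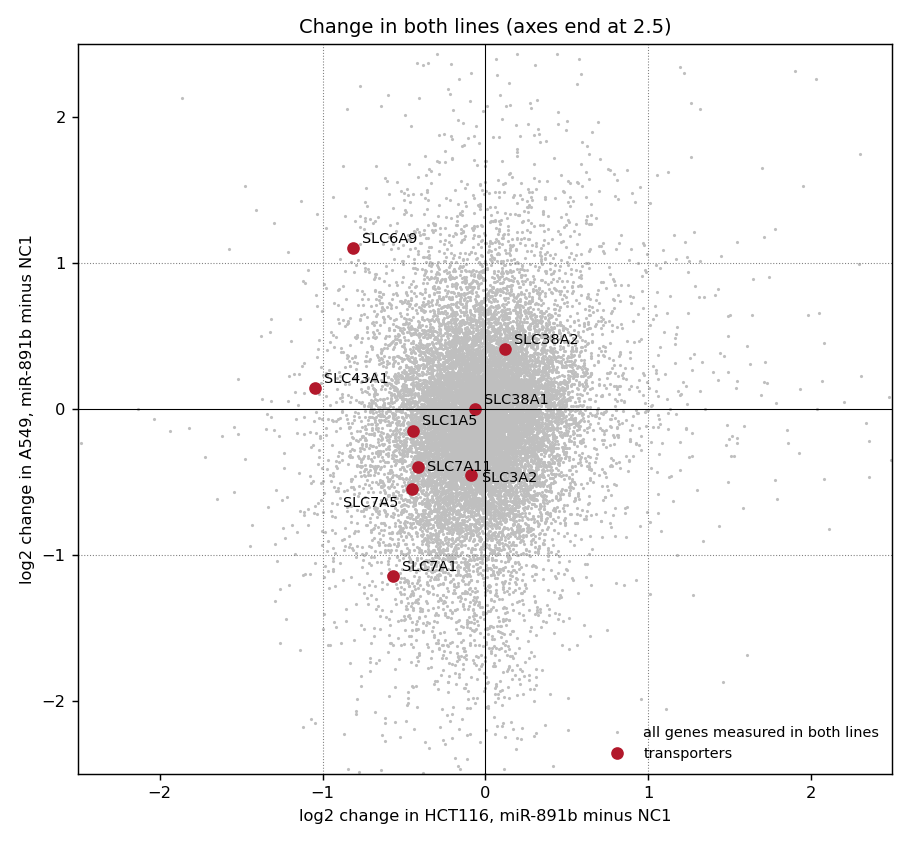
Log2 change in HCT116 (x axis) against A549 (y axis) for 18064 genes measured in both lines (grey), with the 9 transporters measured in both in red; dotted lines mark 2-fold, and 45 genes lie outside the axes. SLC6A9 sits in the upper left (-0.81 and 1.1003), SLC7A1 in the lower left (-0.57 and -1.15), and SLC38A1 at the centre of the cloud.

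The lines themselves differed in their transporters. On the NC1 arrays, SLC7A11 was 3.28-fold, SLC1A4 2.44-fold and SLC7A5 2.35-fold higher in A549, while SLC38A2 was 2.92-fold and SLC7A1 2.37-fold higher in HCT116. That made 3 of 10 members at least 2-fold higher in A549 and 2 of 10 lower, against 11.1% and 16.2%, 27.3% in all, of the 19218 genes measured on both. The limma fit took the NC1 and miR-891b arrays of a line as its repeats, and these are not repeat cultures. By limma over all 4 arrays, 15.5% of 22712 genes were higher and 16.4% lower in A549 at an adjusted p under 0.05, and 5 members were among them. These were SLC7A11 (1.72, adjusted p = 0.0109), SLC7A5 (1.19, adjusted p = 0.0271) and SLC1A4 (1.97, adjusted p = 0.0304) on the higher side in limma. On the lower side were SLC38A2 (-1.41, adjusted p = 0.0199) and SLC7A1 (-1.53, adjusted p = 0.0214). SLC3A2 differed by 0.76 with a limma adjusted p of 0.0851. After normexp with quantile normalization SLC1A4 differed by 0.26 on the NC1 arrays, under 2-fold, and 2 members were at least 2-fold higher in A549; there were 4 under quantile normalization or median scaling. SLC1A4 rests on a signal not well above background on HCT116 miR-891b, against which A549 was at least 3.74-fold higher. Its limma adjusted p was 0.106 after normexp with quantile normalization, where that of SLC3A2 was 0.0329.

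The order of the lines held on the miR-891b arrays for 8 of the 10 members. SLC7A11 differed by 1.71 on the NC1 arrays and 1.73 on the miR-891b arrays, and SLC7A5 by 1.23 and 1.14. SLC6A9 changed its order: it was 1.53-fold higher in HCT116 with NC1 and 2.45-fold higher in A549 with miR-891b. SLC43A1 did so too, with 1.46-fold higher in HCT116 and then 1.56-fold higher in A549. Neither change of order was tested. The probes of SLC38A1 disagreed on the lines, with -0.55 and 0.11 on the NC1 arrays.

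**Figure D4:**
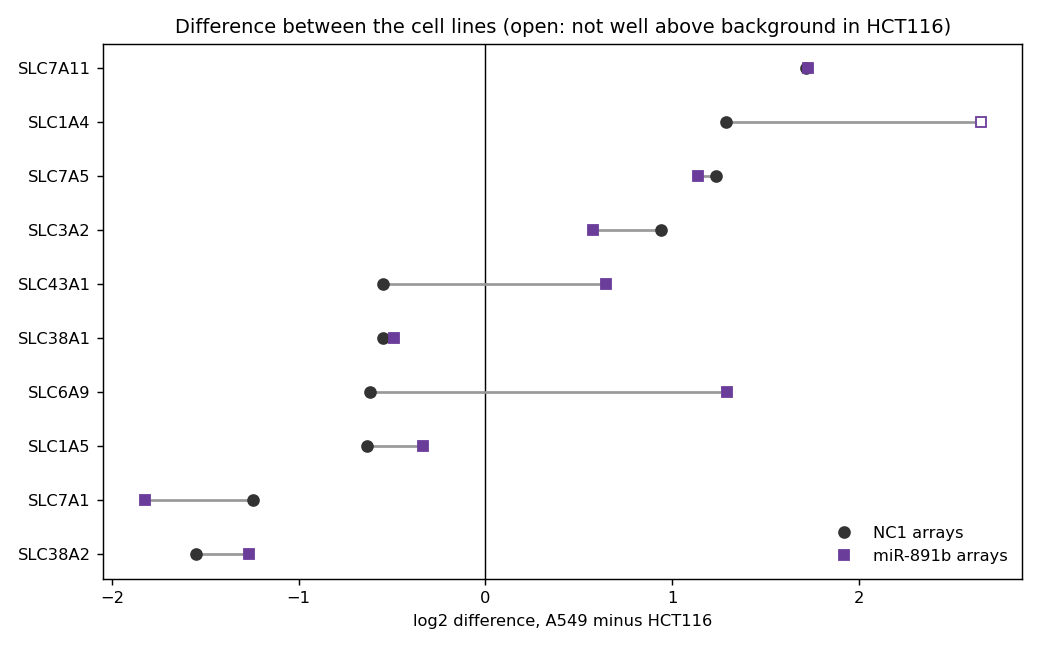
Log2 difference between the lines, A549 minus HCT116, on the NC1 arrays (circles) and on the miR-891b arrays (squares), with an open square where the HCT116 signal was not well above background. SLC7A11, SLC1A4, SLC7A5 and SLC3A2 lie right of 0 on both, SLC38A2, SLC7A1, SLC1A5 and SLC38A1 lie left on both, and SLC6A9 and SLC43A1 cross 0.

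Promoters were searched because several members were lower together in HCT116. RefSeq promoters (GRCh38.p14, 250 bases before to 50 after a start) matched 9 of the 10 members with 16 promoters; SLC7A11 was not matched. The first motif was the C/EBP-ATF response element bound by ATF4, spelled TGATGNAA and read on both strands. It was in 5 promoters, 1 each of SLC1A4, SLC1A5, SLC3A2, SLC7A1 and SLC38A1, and in 3.62% of 35116 promoters of all genes that were searched. The 5 windows of 30 bases below show it in capitals, 5′ to 3′ on the strand of the gene.
SLC1A4: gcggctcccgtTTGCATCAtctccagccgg
SLC1A5: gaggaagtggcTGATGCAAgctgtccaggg
SLC3A2: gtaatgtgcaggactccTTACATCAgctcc
SLC7A1: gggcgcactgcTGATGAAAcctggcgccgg
SLC38A1: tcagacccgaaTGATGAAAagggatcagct
They lie at chr2:64989381-64989410, chr19:46784893-46784922, chr11:62881719-62881748, chr13:29595663-29595692 and chr12:46266502-46266531. The match is read on the opposite strand in SLC1A4 and SLC3A2. In HCT116, SLC1A5 and SLC7A1 changed by -0.45 and -0.57, while SLC3A2 and SLC38A1 changed by -0.09 and -0.06. SLC6A9, SLC43A1 and SLC7A5, with changes of -0.81, -1.05 and -0.45, had no match in these windows. The antioxidant response element TGACNNNGC was in promoters of SLC1A5, SLC3A2, SLC7A1 and SLC7A5 and in 13.3% of all promoters, and the E-box CACGTG in promoters of SLC1A5, SLC7A5 and SLC43A1 and in 7.26% of all. For SLC1A5, the windows of these motifs were chr19:46787386-46787415 and chr19:46787326-46787355, outside the promoter that held its TGATGNAA match. No match of one motif overlapped that of another in these members, and a match of letters is not a bound site.

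Of 28 other amino acid transporters of the cell surface, 10 were dim on all 4 arrays. In HCT116, 10 were measured and 2 were at least 2-fold lower, with 0 higher and a median change of -0.16. These were SLC7A8 (LAT2, a light chain for neutral amino acids), with -1.40, and SLC43A2 (LAT4), with -1.15. In A549, 14 were measured, with a median of 0.23, 1 called lower and 1 called higher. SLC7A7, the light chain y+LAT1, changed by -1.07, and SLC1A1, a glutamate and cysteine carrier, by 1.70. Over all measured genes, the shares called lower and higher were 0.843% and 1.16% in HCT116 and 5.57% and 4.01% in A549. The medians over all measured genes were -0.041 in HCT116 and -0.059 in A549. Around the SLC43A2 probe up to 15.9% of nearby spots dim elsewhere were bright on one of the arrays.

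Transporters of the lysosome carry amino acids across the membrane of that compartment. Of these, 8 were measured in each line. In HCT116 0 were past 2-fold and their median was 0.020. In A549, SLC36A1 (1.06) and SLC38A7 (1.05) were 2-fold higher, 0 were lower and the median was 0.35. Genes that signal amino acid supply to mTORC1 had a median of -0.15 over 14 in HCT116, with 0 past 2-fold. In A549 it was 0.24 over 13, and RRAGD, a Rag GTPase of that pathway, was the 1 gene past 2-fold, with 1.72. Of all measured genes, 2% were past 2-fold in HCT116 and 9.58% in A549, with medians of -0.041 and -0.059.

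Known regulators of the transporters and genes of glutathione and cysteine metabolism were read in the same way. Of 8 regulators, 7 were measured in each line, and 0 were past 2-fold, with medians of 0.011 and -0.090. ATF4 changed by -0.36 in HCT116 and -0.48 in A549. The probe of NFE2L2, which encodes NRF2, was dim on all 4 arrays. Of 7 glutathione genes, CHAC1, which breaks glutathione down, was at least 2-fold lower in HCT116 (-1.54), and 0 were past 2-fold in A549. The medians of that list were -0.13 and -0.27. For comparison, 2% of all measured genes were past 2-fold in HCT116 and 9.58% in A549, with medians of -0.041 and -0.059.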

How the data were processed

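Total RNA (100 ng) of the 4 groups was labelled with Cy3, per the labels. Scans were quantified with Agilent Feature Extraction 11.5.1.1, per the submitters' processing notes, and probe positions are on hg19, per the file headers. The deposited scanner files hold intensity values, background-subtracted and detrended within each array. The deposited table of the authors' values is on the log2 scale, and how it was made is not given in the sources used here. Its values and the main values below differed by a median of at most 0.0069, so scale and centring are alike; its column medians run from -3.80 to -3.60.

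Outlier spots were dropped, spots of 1 probe were averaged on the log2 scale, and the 75th percentile over gene probes was subtracted (signals of 54.9 and 57.0 in HCT116 and 74.8 and 74.2 in A549, NC1 before miR-891b). The brightest probe on average stood for its gene, and every member probe is given. The limma model used genes well above background on at least 2 of 4 arrays, with Benjamini-Hochberg adjustment. Versions were limma 3.58.1, R 4.3.3, Python 3.11.15 and pandas 2.3.3. The model was also run on simulated data, with changes far larger than those of the members. That run therefore cannot show whether changes of the members' size would be found. Promoter shares leave out chromosome 8. The number of arrays limits the precision. The spread behind limma's p-values is how far the 2 lines differ in the miR-891b change, moderated over all genes. No spread between repeat cultures enters them.

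The members, gene lists and alternatives were chosen with earlier results of these data known. Named were the members, and up to 6 genes of each other list past 2-fold in a line where they were measured; marker lists are given as counts. The fibroblast and leukocyte markers (the latter CD3E), AKR1B10, CLDN3, ATF4 and NFE2L2 were named after their values were seen. The alternatives were other scalings, background corrections, value sources, probe and filter rules, areas of stray signal and fold limits.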

Additional observations from a re-analysis of the deposited data

Results flagged for a closer look

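Given here are the members, the medians of the other gene lists and the genes of those lists past 2-fold in a line for which the change had opposite signs in the 2 lines and exceeded in each the median spread between spots of 1 probe (0.061 in HCT116 and 0.071 in A549). None of these differences was tested, since each line has 1 array per group. The A549 change of SLC6A9 exceeded that of HCT116 by 1.91 on the log2 scale (-0.81 and 1.1003), and that of SLC43A1 by 1.19 (-1.05 and 0.14). SLC43A1 was dim, its A549 change was below the median spot spread of dim A549 probes (0.187), and the changes were -0.33 and 0.044 after normexp with quantile normalization. For RRAGD the difference was 1.92 (-0.20 and 1.72). The marker lists are not among the lists meant here. Of their genes, AKR1B10 (4.47 in HCT116 and -0.19 in A549) and CLDN3 (-0.90 and 1.03) also met this rule. The median of the other surface transporters differed by 0.39 (-0.16 and 0.23), and that of the genes signalling amino acids to mTORC1 by 0.39 (-0.15 and 0.24). Each median is over the genes measured in that line, so the sets of genes differ between the lines. They held 10 surface transporters in HCT116 and 14 in A549, and 14 and 13 mTORC1 genes.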

How the results depend on the processing

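Under normexp background correction with quantile normalization, the members at least 2-fold lower numbered 0 in HCT116, 0 in A549 and 1 between the lines, the HCT116 median was -0.35 and the difference between the lines had a median of -0.25. That last median was -0.55 as reported, -0.46 under quantile normalization and under median scaling, and -0.38 with the mean over probes. Without probes in areas of stray signal, which leaves out SLC7A1, 0 members were 2-fold lower in A549 and 1 was between the lines, and the A549 median was -0.0038; it was 0.013, with the sign turned, under quantile normalization. The A549 change of SLC38A1 turned to 0.18 under quantile normalization, 0.14 with normexp and 0.059 with median scaling. At 1.5-fold, 2 members were lower in HCT116 and 4 were lower in A549 than in HCT116. At 3-fold, 0 members were lower in either line, 0 were higher in A549, and between the lines 0 were lower and 1 was higher. The shares of all measured genes at 1.5-fold and 3-fold were not counted. These member counts therefore cannot be set against a background. With no filter on dim probes, 6 of 43310 genes had a limma adjusted p under 0.05 for miR-891b, 0 of them members. Apart from the fold limits, the causes were not tested. The limma fit pairs the arrays by line. Beyond that, no paired analysis was possible because each group holds 1 array and the labels give no replicate numbers.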
